A study of Homo sapiens with 6 samples.

Results

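The genes FGR, LYN, FYN, SRC, SYK, BTK, CSK, PTPN6 and INPP5D encode 9 proteins of the tyrosine kinase relay that myeloid cells use below immune receptors and integrins: 4 Src-family kinases, the kinases SYK and BTK, the Src-family inhibitor CSK, and the phosphatases SHP-1 (PTPN6) and SHIP1 (INPP5D). They were taken by gene symbol. Each matched 1 row of the deposited table of 31853 genes, and all 9 were among the 18138 genes that passed the filter on low counts. Their RNA was measured in Mon-Mac-6, a human cell line grown from a monocytic leukaemia, after 48 h with 500 nM WD6305 or with DMSO, the solvent control. The series names WD6305 as a PROTAC against METTL3, that is, a molecule built to bring METTL3, the enzyme that places N6-methyladenosine on messenger RNA, to the cell's protein degradation machinery. There were 3 poly(A) RNA-seq libraries with WD6305 and 3 with DMSO, all of the same cell line. Nothing in the labels tells separate cultures from repeat libraries, so p-values measure the spread between these libraries, which may be technical. The files hold RNA only, with no protein or phosphorylation values.

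In myeloid cells, Src-family kinases sit under the plasma membrane and phosphorylate paired tyrosines, called ITAMs, in the tails of receptor adaptors such as FcRgamma and DAP12. SYK binds the phosphorylated ITAMs through its SH2 domains and passes the signal to adaptors, to phospholipase C gamma and to BTK. CSK holds Src-family kinases inactive by phosphorylating a tyrosine near their C-terminal end. SHP-1 and SHIP1 are recruited by inhibitory receptors that carry ITIM motifs, where SHP-1 removes phosphate from tyrosines and SHIP1 removes it from the membrane lipid PIP3.

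Levels are given as FPKM, fragments scaled to transcript length and library size, which allow genes of different length to be compared. Changes were tested on the deposited estimated counts with edgeR's quasi-likelihood test, two-sided, with Benjamini-Hochberg adjusted p-values over the 18138 genes, and a gene was called where its adjusted p was under 0.05. Library totals lay between 64525948 and 71155346 counts. METTL3 RNA had a log2 fold change of 0.21 (SE 0.05, adjusted p = 0.0218, edgeR), which is no check of a degrader that acts on the protein. Of the monocyte markers, LYZ (lysozyme) stood at 4967 to 5752 FPKM with WD6305 and 2891 to 3139 FPKM with DMSO, and CD68 at 88.8 to 100.3 FPKM with WD6305 and 41.2 to 44.6 FPKM with DMSO, while CD4 was near 0 in all 6 libraries. Of the 9 monocyte and macrophage markers in the table, 6 rose and 2, CD14 and CD163, fell. Their summed level was 5238 to 6020 FPKM with WD6305 and 3048 to 3298 FPKM with DMSO. This shift moved with the groups, and its part in the results below was not tested. Keratin transcripts, which mark skin epithelium, were present in WD6305 2 and 3 and DMSO 1 and 2, where KRT5 lay between 14.4 and 18.0 FPKM, and were near 0 in WD6305 1 and DMSO 3 (0.01 and 0.03 FPKM). COL1A1, a collagen of fibroblasts, stood at 3.48 FPKM in WD6305 1 and at most 0.27 FPKM elsewhere. Of 6 T-cell markers 2 were analysed here, with a summed level of 0.63 to 1.21 FPKM with WD6305 and 1.87 to 2.35 FPKM with DMSO, nearly all of it TRAC.

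Of the 9 genes, 5 changed under WD6305: FGR, LYN and SYK rose, and SRC and CSK fell. FYN, BTK, PTPN6 and INPP5D did not pass the test. Across all tested genes 23.4% were called, 12.2% higher and 11.2% lower, and among genes with a mean FPKM of at least 1 the share was 33.8%. The 9 genes, with 55.6% called, are too few to set against those shares. Their median log2 fold change was 0.03, against 0.00 for all tested genes, and their median absolute change of 0.19 lay below the 0.26 of all tested genes. The CPM values (counts scaled by library size and TMM factors) of the groups did not overlap for 6 of the 9, FYN added to the 5 called, where 40.8% of all tested genes showed no overlap. In bulk RNA, fewer cells with a transcript and less transcript per cell cannot be told apart.

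**Figure D1:**
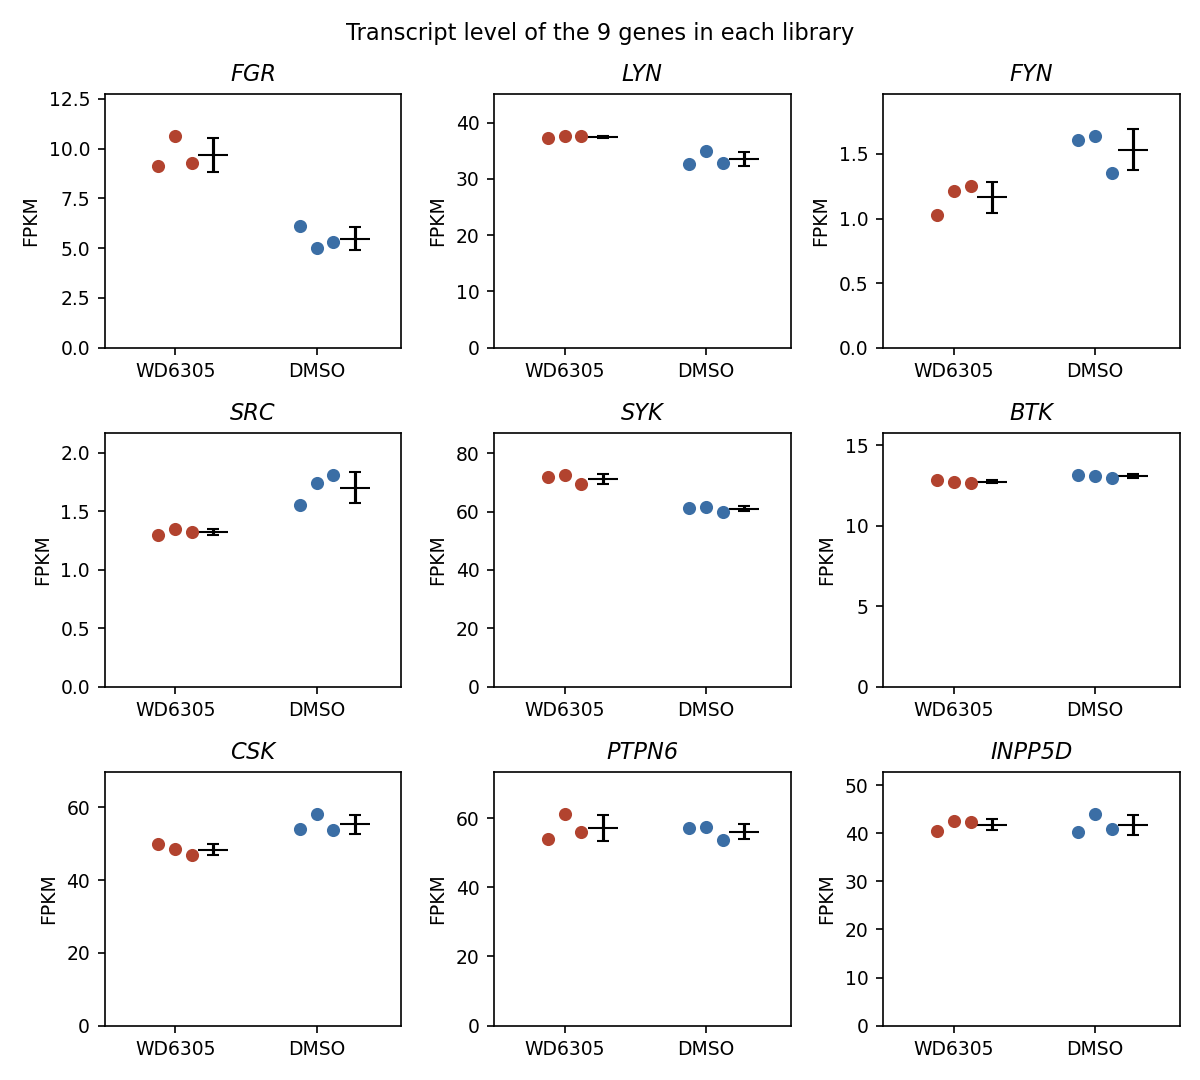
FPKM of each gene (vertical axes, from 0) in the 3 WD6305 libraries (red) and the 3 DMSO libraries (blue), with mean and SD in black. FGR, LYN and SYK lie higher in every WD6305 library, and FYN, SRC and CSK lower, while PTPN6 and INPP5D overlap between the groups.

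FGR, a Src-family kinase largely restricted to myeloid cells, changed most among the 9. The gene occupies chromosome 1, 27612064 to 27635185, minus strand, on GRCh38, the build of all gene coordinates here. Its level was 9.12, 10.64 and 9.26 FPKM in WD6305 libraries 1 to 3, against 6.11, 4.99 and 5.30 FPKM in DMSO libraries 1 to 3. The lowest WD6305 library thus stood well above the highest DMSO library. FGR rose 1.80-fold, with a log2 fold change of 0.84 ± 0.10 (SE) and an edgeR adjusted p of 0.00065, a change larger in size than that of 90.0% of tested genes. A two-sided exact permutation of the 6 libraries gave p = 0.1, the smallest that 3 against 3 allows, and the same held for LYN, FYN, SRC, SYK and CSK. FGR was called in each of the 19 alternative analyses, with log2 fold changes of 0.72 to 0.94.

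LYN, the Src-family kinase that also acts on ITIM receptors and so has both activating and inhibitory roles, was the most abundant of the 4. The gene occupies chromosome 8, 55879835 to 56014169, plus strand. Its level was 37.31, 37.64 and 37.56 FPKM with WD6305, against 32.68, 35.03 and 32.87 FPKM with DMSO. The WD6305 libraries were nearly identical, and each exceeded all 3 DMSO libraries. The rise was small, 1.14-fold, with a log2 fold change of 0.19 ± 0.05 (SE) and an edgeR adjusted p of 0.0177. The sign was kept in all 19 alternatives, but the call was lost when any WD6305 library or DMSO 1 was left out (edgeR adjusted p = 0.0530 to 0.0762) and with upper-quartile factors (0.0639).

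SRC, the broadly expressed founding member of the family, and FYN, best known from T cells and neurons, were the least abundant of the 9. SRC (chromosome 20, 37344685 to 37406050, plus strand) stood at 1.30, 1.35 and 1.32 FPKM with WD6305 and at 1.55, 1.74 and 1.81 FPKM with DMSO. Every WD6305 library was below every DMSO library. SRC fell to 0.793 of its DMSO level (log2 fold change -0.33 ± 0.09, SE, with an edgeR adjusted p of 0.0274). This call was lost without any 1 library other than DMSO 1 (edgeR adjusted p = 0.0695 to 0.0940), in the 4 libraries with keratin transcripts (0.137) and in limma on FPKM (0.0632 to 0.123).

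FYN (chromosome 6, 111660332 to 111873452, minus strand) had 1.03, 1.21 and 1.25 FPKM with WD6305 and 1.61, 1.64 and 1.35 FPKM with DMSO. The groups did not overlap, but DMSO 3 stood close to the WD6305 libraries. The log2 fold change of -0.37 (SE 0.12, 95% interval -0.65 to -0.10) missed the threshold at adjusted p = 0.0555 (edgeR). It passed in DESeq2 (adjusted p = 0.0276), in edgeR without DMSO 3 (0.0229) and in the 4 libraries with keratin transcripts (0.0479).

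SYK, the kinase that docks on phosphorylated ITAMs, was the most abundant of the 9 and stood above 97.0% of tested genes in mean FPKM. The gene occupies chromosome 9, 90801787 to 90898549, plus strand. With WD6305 it was at 71.7, 72.6 and 69.4 FPKM, and with DMSO at 61.4, 61.7 and 60.0 FPKM. Both groups were tight and clearly apart. SYK rose 1.19-fold, with a log2 fold change of 0.25 ± 0.04 (SE) and an edgeR adjusted p of 0.0038, and was called in all 19 alternatives, with log2 fold changes of 0.21 to 0.26.

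BTK, the Tec-family kinase that activates phospholipase C gamma, was almost level. The gene occupies chromosome X, 101349338 to 101390796, minus strand. Its FPKM values were 12.82, 12.73 and 12.68 with WD6305, against 13.16, 13.12 and 12.97 with DMSO. The groups lay just apart in FPKM, but in CPM they overlapped, at 105.8 to 107.2 CPM with WD6305 and 104.9 to 109.5 CPM with DMSO. BTK had a log2 fold change of -0.01 (SE 0.04) and an edgeR adjusted p of 0.862, with a 95% interval of -0.11 to 0.08 that does not reach the 0.25 of SYK in either direction.

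CSK, the brake on Src-family kinases, occupies chromosome 15, 74782080 to 74803197, plus strand. It stood at 49.9, 48.5 and 46.8 FPKM with WD6305, against 54.0, 58.2 and 53.7 FPKM with DMSO. All WD6305 libraries were below all DMSO libraries, with DMSO 2 the highest. CSK fell to 0.890 of its DMSO level (log2 fold change -0.17 ± 0.05, SE, with an edgeR adjusted p of 0.0411). This was the call nearest to the threshold, and it was lost without any 1 library other than DMSO 3 (edgeR adjusted p = 0.0651 to 0.162) and with no filter on low counts (0.0855), but held in the 4 libraries with keratin transcripts (0.0189), with the sign kept in all 19 alternatives.

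The phosphatases had no call. PTPN6 (chromosome 12, 6946468 to 6961316, plus strand) had 54.0, 61.2 and 56.0 FPKM with WD6305 and 57.2, 57.3 and 53.5 FPKM with DMSO. INPP5D (chromosome 2, 233059967 to 233207903, plus strand) had 40.4, 42.6 and 42.3 FPKM with WD6305 and 40.3, 44.0 and 40.8 FPKM with DMSO. For both genes the values of the groups were interleaved. The log2 fold change of PTPN6 was 0.05 (95% interval -0.08 to 0.18, adjusted p = 0.606, edgeR), and that of INPP5D was 0.03 (95% interval -0.09 to 0.14, adjusted p = 0.765, edgeR). Neither was called in any alternative. The sign of PTPN6 turned without WD6305 2, and that of INPP5D with upper-quartile factors.

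**Figure D2:**
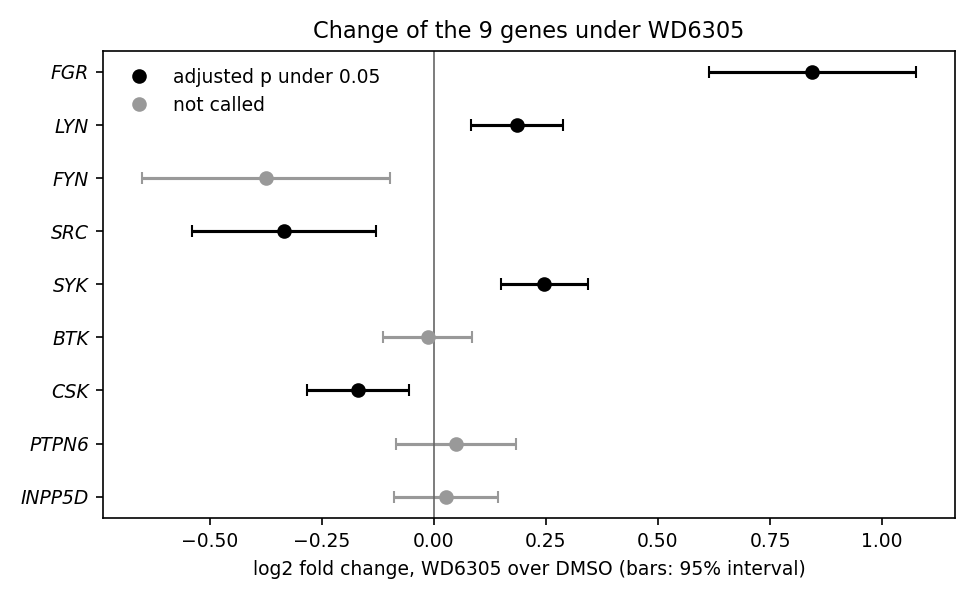
Log2 fold change of WD6305 over DMSO for each gene (horizontal axis) with its 95% interval from edgeR, in black where the adjusted p was under 0.05 and in grey otherwise. FGR at 0.84 stands apart from the other 8, which lie between -0.37 and 0.25.

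The promoter windows of these genes, from RefSeq on GRCh38.p14, run from 250 bases before a start site to 50 after it. They are shown to set the start regions beside the levels of these genes, and were searched on both strands for GAGGAAGT, the core of the site that the myeloid transcription factor PU.1 is known to bind. The letters were chosen with the windows in view, so how often these genes hold them is no sign of enrichment. The 7 genes with an entry have 15 windows, of which 4 hold the motif, in 1 window each of SYK, BTK, PTPN6 and INPP5D. Over all genes, 2.59% of 35116 windows hold it. The shorter GAGGAA, which lies within it, occurs in 8 of the 15 windows and in 27.9% of all windows. The window nearest to the deposited gene start is printed for the 4 genes with the longer motif and for FGR, which has only the shorter one. CSK also has only the shorter motif, 115 bases before the start site of its window, which is not printed. That start site lies 6464 bases from the deposited gene start of CSK. Some of these genes have other windows, and which start site these cells use was not measured. Capitals mark the longer motif or, in FGR, the shorter one, and read ACTTCCTC or TTCCTC where the match is on the other strand.
SYK, chr9:90801569-90801868, plus strand: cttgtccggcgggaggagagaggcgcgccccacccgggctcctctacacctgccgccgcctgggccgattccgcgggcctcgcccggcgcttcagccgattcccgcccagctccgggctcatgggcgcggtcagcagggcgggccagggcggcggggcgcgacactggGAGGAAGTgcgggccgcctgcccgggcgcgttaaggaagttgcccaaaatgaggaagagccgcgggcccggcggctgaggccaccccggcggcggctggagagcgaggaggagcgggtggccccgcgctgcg
BTK, chrX:101390747-101391046, minus strand: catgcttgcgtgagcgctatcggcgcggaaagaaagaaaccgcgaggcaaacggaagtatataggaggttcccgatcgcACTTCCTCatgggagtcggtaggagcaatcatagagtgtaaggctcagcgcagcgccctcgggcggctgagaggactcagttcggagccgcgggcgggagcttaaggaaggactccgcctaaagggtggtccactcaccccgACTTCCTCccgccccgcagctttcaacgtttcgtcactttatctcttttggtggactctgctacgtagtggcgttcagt
PTPN6, chr12:6946327-6946626, plus strand: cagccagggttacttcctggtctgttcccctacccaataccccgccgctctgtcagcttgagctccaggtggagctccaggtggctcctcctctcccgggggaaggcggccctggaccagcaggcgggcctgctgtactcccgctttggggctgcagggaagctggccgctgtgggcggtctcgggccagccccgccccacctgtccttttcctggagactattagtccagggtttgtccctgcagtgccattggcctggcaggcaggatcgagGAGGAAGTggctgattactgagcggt
INPP5D, chr2:233060092-233060391, plus strand: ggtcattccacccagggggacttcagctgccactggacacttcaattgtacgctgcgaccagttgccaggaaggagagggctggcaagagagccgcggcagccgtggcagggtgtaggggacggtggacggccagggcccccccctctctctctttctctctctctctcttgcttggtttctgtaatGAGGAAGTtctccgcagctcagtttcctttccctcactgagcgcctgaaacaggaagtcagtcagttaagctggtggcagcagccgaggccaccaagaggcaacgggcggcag
FGR, chr1:27635136-27635435, minus strand: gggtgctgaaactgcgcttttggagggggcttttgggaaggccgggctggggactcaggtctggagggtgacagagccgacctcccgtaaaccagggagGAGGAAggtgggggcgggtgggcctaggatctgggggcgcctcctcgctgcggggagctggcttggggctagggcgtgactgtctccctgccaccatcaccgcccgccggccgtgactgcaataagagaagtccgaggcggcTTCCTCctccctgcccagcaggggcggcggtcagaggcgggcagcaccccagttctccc
The match begins 82 bases before the start site in SYK, 63 before it in INPP5D and 24 after it in PTPN6, and BTK has a match 171 and another 29 bases before its start site. In FGR the shorter motif begins 151 and 9 bases before it. Of the 4 genes that hold the longer motif, SYK rose and the other 3 had no call, and FGR, with the largest rise of the 9, does not hold it in this window. SPI1, which encodes PU.1, averaged 180 FPKM with WD6305 and 149 FPKM with DMSO (log2 fold change 0.30, SE 0.06, adjusted p = 0.00573, edgeR). A match is a run of letters, binding was not measured, and the part of SPI1 in these results was not tested. No window was printed for LYN, SRC, FYN or CSK.

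The table lists an overlapping gene for LYN, CSK and INPP5D, and each such partner averaged at most 3.67 counts per group, while the lowest count of any of the 9 in a library was 531, for FYN.

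By level, the order with WD6305 was SYK, PTPN6, CSK, INPP5D, LYN, BTK, FGR, SRC and FYN, with no overlap between neighbours over the 3 libraries. With DMSO the order was the same, but PTPN6 and CSK overlapped (56.0 ± 2.15 and 55.3 ± 2.52 FPKM, SD, n = 3), and so did SRC and FYN (1.70 ± 0.13 and 1.53 ± 0.16 FPKM). The highest and lowest of the 9, SYK and FYN, averaged 71.2 and 1.16 FPKM with WD6305 and 61.0 and 1.53 FPKM with DMSO. Per SYK transcript, SHP-1 and SHIP1 transcripts were fewer under WD6305: PTPN6 divided by SYK in FPKM was 0.753 to 0.843 with WD6305 and 0.892 to 0.931 with DMSO, and INPP5D divided by SYK was 0.564 to 0.611 with WD6305 and 0.656 to 0.714 with DMSO. SYK rose while PTPN6 and INPP5D had no call, and the ratios themselves were not tested.

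Of other Src-family kinases, YES1, which is broadly expressed, had 5.49, 5.03 and 5.29 FPKM with WD6305 and 5.83, 5.41 and 7.73 FPKM with DMSO, with overlapping groups and no call (log2 fold change -0.24, adjusted p = 0.202, edgeR). FRK, a more distant relative found in epithelia, was listed at 0 FPKM in all 6 libraries. LCK and BLK were not analysed here.

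The relatives of SYK and BTK analysed here were far less abundant than either. TEC, a Tec-family kinase, averaged 1.64 ± 0.09 FPKM with WD6305 and 1.21 ± 0.32 FPKM with DMSO (SD, n = 3), and was not called (log2 fold change 0.46, edgeR adjusted p = 0.117). BMX, another Tec-family kinase, averaged 0.68 ± 0.13 FPKM with WD6305 and 0.46 ± 0.12 FPKM with DMSO, and was not called either (log2 fold change 0.58, adjusted p = 0.153, edgeR). ZAP70, the SYK relative of T cells, and TXK were at or below 0.07 FPKM in every library and were not tested.

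Of 114 genes in 6 lists of receptors, adaptors, kinases and regulators, 98 were tested, of which 53 were not called, 40 rose and 5 fell. The shares that rose and fell were 40.8% and 5.10%, against 12.2% and 11.2% of all tested genes. In either direction 45.9% of the 98 were called, against 23.4% of all tested genes. Among tested genes with a mean FPKM of at least 1 that share was 33.8%. The median log2 fold change over the 6 lists was 0.23, against 0.00 for all tested genes. The lists were chosen with earlier results of these data known, so counts and medians only describe them, and no test was made.

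Upstream of SYK, the ITAM adaptors and their receptors rose in 6 of 17 tested genes, and the other 11 were not called, with a median log2 fold change of 0.51. That median is the value of CD79A, which was not called and averaged 0.40 FPKM with WD6305 and 0.28 FPKM with DMSO. The uncalled genes above the median, LILRA1, LILRA5, CLEC4E and NFAM1, were scarce too, at an average of at most 0.69 FPKM in either group. TYROBP, which encodes the adaptor DAP12, had 70.4, 76.8 and 70.4 FPKM with WD6305, against 43.1, 41.6 and 40.2 FPKM with DMSO, and rose 1.77-fold (adjusted p = 0.000104, edgeR). FCER1G, which encodes FcRgamma, rose to 153 ± 0.78 FPKM with WD6305, against 96.4 ± 6.26 FPKM with DMSO (SD, n = 3). Both adaptors were thus higher in every WD6305 library. The receptors LILRA2 and CLEC4D, which signal through FcRgamma, rose 2.07-fold and 3.05-fold, CLEC4D to only 1.55 FPKM. Reads of LILRA2 may be shared among similar LILR genes. The Fc receptors FCGR1A and FCGR2A of the same list were more abundant than CLEC4D and were not called (adjusted p = 0.780 and 0.653, edgeR). FCGR1A averaged 8.59 FPKM with WD6305 and 8.38 FPKM with DMSO, and FCGR2A 4.31 and 4.59 FPKM.

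The ITIM receptors, the docking sites for SHP-1 and SHIP1, rose in 9 of 18 tested genes and fell in 1, with a median log2 fold change of 0.29. PECAM1, an adhesion receptor of leukocytes and endothelium, had 86.1, 86.8 and 86.2 FPKM with WD6305, against 45.2, 47.1 and 46.7 FPKM with DMSO. PECAM1 rose 1.89-fold with an edgeR adjusted p of 2.22e-05, and each group was tight. PILRA rose 2.82-fold to 5.00 FPKM, CLEC12A 2.53-fold to 1.87 FPKM, and SIGLEC5, whose reads may be shared with a near-identical neighbour, 2.20-fold to 5.29 FPKM. The symbol SIGLEC5 had 2 entries, and only the entry with the larger summed count was used. FCGR2B, the inhibitory Fc receptor, was the one that fell, at 0.06 FPKM with WD6305 and 0.18 FPKM with DMSO, and reads of the near-identical Fc gamma receptor genes may be split between them. FCGR2B lost its call without WD6305 1, WD6305 3 or DMSO 1 (edgeR adjusted p = 0.0572 to 0.0679) and in the 4 libraries with keratin transcripts (0.0766). The phosphatases that these receptors recruit had no call, as given above for PTPN6 and INPP5D.

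Regulators of Src-family and SYK activity rose in 10 of 23 tested genes and fell in 1, with a median log2 fold change of 0.24. PTPN18 and PTPN12, tyrosine phosphatases of the PEST group, had log2 fold changes of 0.54 and 0.41, and the adaptors DOK3 and SLA, which dampen receptor signalling, had 0.43 and 0.33 (adjusted p = 0.00024 to 0.00311 for the 4, edgeR). PTPRC, which encodes CD45 and removes the phosphate that CSK adds, rose 1.39-fold and stood at 14.6 to 15.4 FPKM with WD6305 and 9.35 to 13.2 FPKM with DMSO. PTPRJ, a receptor phosphatase with a similar role, rose 1.18-fold, a call that was lost in 7 of 19 alternatives: without WD6305 2, WD6305 3 or DMSO 1 (edgeR adjusted p = 0.0603 to 0.0791), with the library number as a block (0.0538) and in the 3 limma settings (0.0566 to 0.0845). PTPN22, a phosphatase that partners with CSK, rose 1.45-fold. The tyrosine phosphatases PTPRA, PTPRE, PTPN1, PTPN2 and PTPN11 of the same list were not called, with log2 fold changes of -0.22 to 0.05. PTPRA averaged 23.7 FPKM with WD6305 and 23.9 FPKM with DMSO, and PTPN1 23.4 and 23.5 FPKM, both above PTPRC. Among the alternatives, PTPRC and PTPN22 each lost the call in limma without a filter only (adjusted p = 0.0758 for PTPRC and 0.0516 for PTPN22). MATK, the kinase closest to CSK in sequence and function, was the gene that fell, to 7.38 ± 0.23 FPKM with WD6305, against 9.51 ± 0.37 FPKM with DMSO (log2 fold change -0.34, SE 0.06, adjusted p = 0.00529, edgeR). Both kinases that phosphorylate the C-terminal tail of Src-family kinases, CSK and MATK, were thus called lower. MATK kept its call in all 19 alternatives, while CSK lost it in 8 of 19.

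Downstream of SYK and BTK, 14 of 36 tested genes rose and 3 fell, with a median log2 fold change of 0.16. PRAM1, an adaptor of myeloid cells, had 12.1, 11.5 and 12.5 FPKM with WD6305, against 7.02, 7.74 and 6.83 FPKM with DMSO, and rose 1.70-fold (adjusted p = 0.000293, edgeR). BCL10, which links SYK signals to NF-kB, rose 1.68-fold, PIK3R5, a regulatory subunit of PI 3-kinase gamma, rose 1.59-fold, and DAPP1, an adaptor that binds PI 3-kinase lipids, rose 2.00-fold. LCP2, which encodes the adaptor SLP-76, rose 1.27-fold. The 3 that fell were LAT, VAV1 and PLCG1. VAV1, a signalling protein of blood cells, was at 27.8 ± 0.27 FPKM with WD6305 and 32.8 ± 1.21 FPKM with DMSO. PLCG1, the phospholipase C gamma that predominates outside B cells and myeloid cells, fell to 0.719 of its DMSO level. It averaged 2.73 FPKM with WD6305 and 3.86 FPKM with DMSO. PLCG2, the form known from B cells and myeloid cells, had no call (log2 fold change 0.19, SE 0.08, adjusted p = 0.135, edgeR). PLCG2 averaged 2.40 FPKM with WD6305 and 2.14 FPKM with DMSO, below PLCG1 in both groups. LAT, an adaptor of T cells, like the T-cell marker TRAC, was lower and scarce, at 0.39 FPKM with WD6305 and 0.82 FPKM with DMSO, and lost its call when WD6305 2 or WD6305 3 was left out (edgeR adjusted p = 0.0538 and 0.0602) and in limma without a filter (0.0991). Whether these transcripts share a source was not tested. The genes named here that fell, and PTPRC, PTPRJ, PTPN22, LCP2 and PLCG2, were picked after their values were seen. So were CD79A, LILRA1, LILRA5, CLEC4E, NFAM1, FCGR1A, FCGR2A, PTPRA, PTPRE, PTPN1, PTPN2 and PTPN11.

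**Figure D3:**
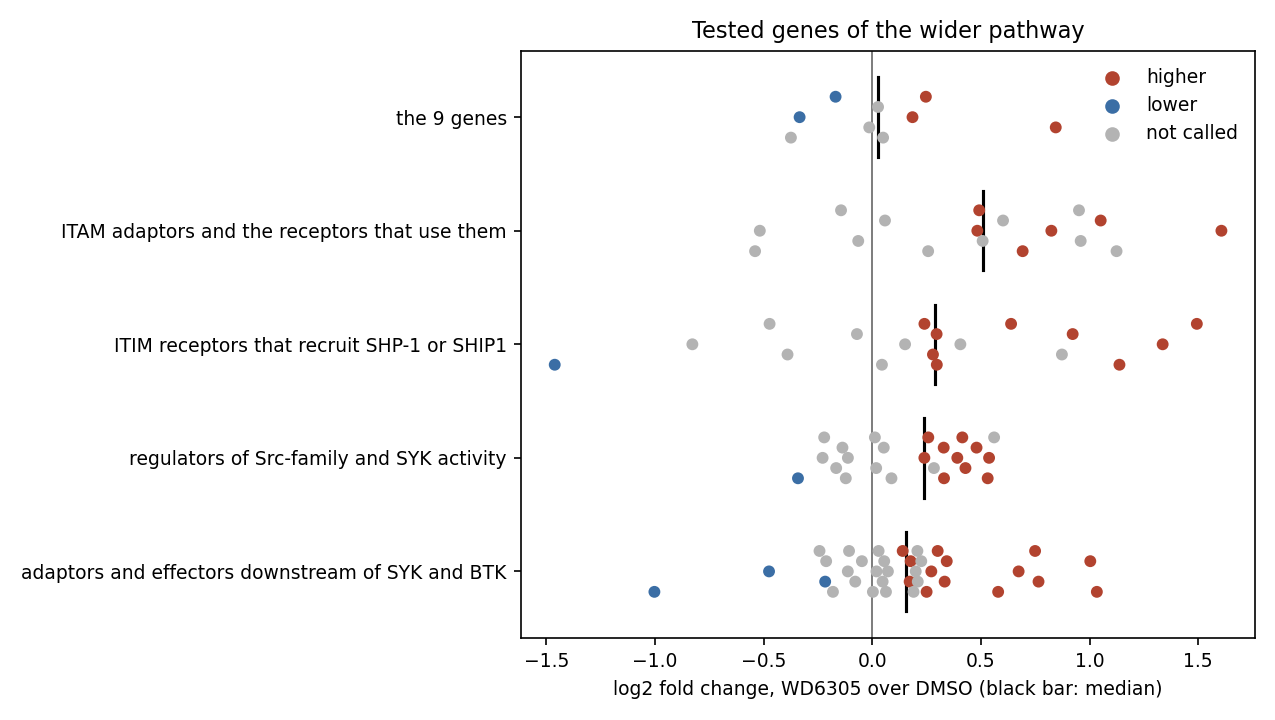
Log2 fold change of WD6305 over DMSO (horizontal axis) of the 9 genes and of the tested genes of the 4 larger lists, 1 point per gene, in red or blue where called higher or lower and in grey where not called, with the median of each list as a black bar. The medians of the 4 larger lists lie between 0.16 and 0.51. The 0.51, of the ITAM adaptors and receptors, is the value of CD79A, which was scarce and not called.

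Across the 6 libraries, each of the 9 was set beside every other gene with a mean FPKM of at least 5, by Pearson's r of log2(FPKM + 1). Among the most alike were PNP and SDF2L1 for FGR, PLCB2 for LYN, RNPEPL1 and ARHGAP9 for SYK, CIZ1 and RUNX1 for CSK, HP1BP3 for SRC, CZIB and GIT1 for FYN, THAP4 and LTA4H for BTK, BLCAP and ALDH16A1 for PTPN6, and FBXL6 and CCDC107 for INPP5D, with r between 0.962 and 1.00. With 6 points that share libraries and the treatment, and 6281 genes to choose from, such values describe these libraries only.

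**Figure D4:**
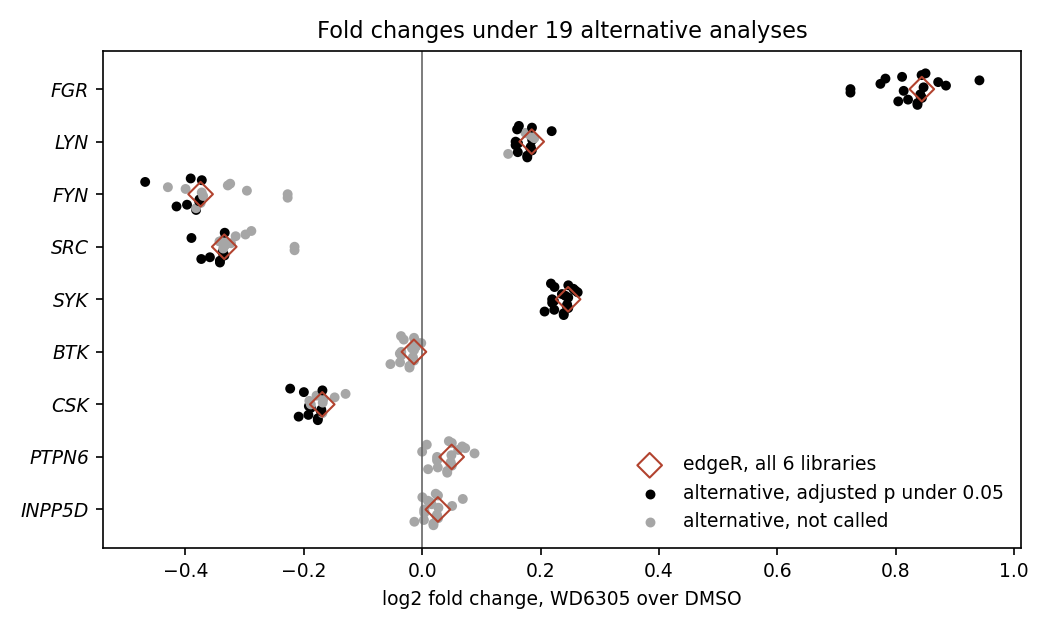
Log2 fold change of each gene (horizontal axis) by edgeR on all 6 libraries (open diamond) and under 19 alternative analyses (dots, black where the adjusted p was under 0.05 and grey otherwise). All dots of FGR and SYK are black and those of LYN, FYN, SRC and CSK are mixed, each on 1 side of 0, while BTK, PTPN6 and INPP5D have grey dots only, near 0.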

How the data were processed

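Poly(A) RNA of Mon-Mac-6 cells was made into dUTP libraries and sequenced as read pairs, per the labels' protocols. The submitters' processing notes name GRCh38 and the tools fastp, HISAT2, StringTie and edgeR; their versions, their settings and whether counting used strand are not stated there. The table holds estimated counts as deposited, all whole, with an excess of the value 4 among low genes, so a count may not be 1 fragment and errors come from replicate spread. It also holds FPKM, named so per the file headers and scaled by the authors for gene length and depth.

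Genes passing filterByExpr were scaled with TMM factors (0.987 to 1.02), and WD6305 was compared with DMSO in edgeR 4.0.16 (R 4.3.3) without a block. Alternatives used limma 3.58.1 and DESeq2 1.42.0, other factors and filters, and libraries left out. Only the edgeR fit was tried on simulated counts, drawn with the spread estimated from these same data. Named genes are the 9, the 4 genes of each list with the smallest adjusted p and an FPKM of at least 1, all Src, Syk and Tec family kinases, and the 2 most alike genes for each of the 9. Some genes so named, and results that need them, are not reported here. The members and lists were chosen with earlier results of these data known. Between libraries of a group, counts divided by 4 differed with a chi-square of 3.77 to 10.4 per degree of freedom. Under that divisor none were alike within sampling noise. The divisor was assumed, since the unit of a count is not stated, and the chi-square scales with it.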

Additional observations from a re-analysis of the deposited data

How the results depend on the processing

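All 19 alternatives kept FGR and SYK as called and BTK, PTPN6 and INPP5D as not called, and 2 or 3 of the 9 genes were higher in each. The number lower was 1 with no filter and in limma on log2(FPKM + 1) or log2(FPKM + 0.1), 0 under the replicate block and in unfiltered limma, 0 to 2 without 1 library, and 3 in DESeq2, with upper-quartile factors, library sizes alone, genes of FPKM of at least 1, counts divided by 4 and a keratin term, against 2. The log2 fold change of LYN was 0.15 with upper-quartile factors (not called) and 0.16 to 0.22 without 1 library. FYN passed in DESeq2 (-0.38), with upper-quartile factors (-0.42), library sizes alone (-0.40), genes of FPKM of at least 1 (-0.38), counts divided by 4 (-0.38), a term for keratin libraries (-0.37) and those libraries alone (-0.39), and had -0.47 to -0.30 without 1 library. SRC missed in limma (-0.22, -0.34 and -0.22), with the replicate block (-0.33) and in the keratin libraries alone (-0.29), and had -0.39 to -0.30 without 1 library. CSK missed with no filter (-0.17), in unfiltered limma (-0.19) and under the replicate block (-0.17), and had -0.20 to -0.13 without 1 library. PTPN6 spanned -2.58e-05 to 0.0885 without 1 library, and INPP5D had -0.0131 with upper-quartile factors.

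Pathway genes lower numbered 8 in DESeq2, with upper-quartile factors and with counts divided by 4, 9 with library sizes alone and the keratin term, and 3 to 7 without 1 library, against 5. Over all genes 2756 to 4640 were called without 1 library, lowest without WD6305 3. Same-numbered libraries did not deviate together (correlations of -0.23 to 0.01), so the numbers were not taken as pairs, and the block moved the calls of SRC and CSK only among the 9.

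The cause of these changes was not tested. The design holds 1 dose, 1 time and 1 cell line.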
